A study of Mus musculus with 21 samples.

Results

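The anterior pituitary hormone genes Prl, Gh, Cga, Tshb, Lhb and Fshb were followed in bulk RNA-seq of mouse forebrain. They were picked by name, with earlier results of these data known, and are 6 of the 55401 genes in the count table. All 6 were matched through their Ensembl identifiers. The 21 mice fell into 6 groups. The parental lines E2H, E3H and E4H (n = 3 each) were homozygous for human APOE2, APOE3 or APOE4 in place of mouse Apoe, and were 9 to 10 months old. Mice of PS/E2H, of PS/E3H and of PS/E4H (n = 4 each) had the same APOE genotypes and were also heterozygous for the human P301S tau transgene of the PS19 line, which was kept on a mixed B6/C3H background. PS19 mice were killed once paralyzed, so wherever PS19 and parental mice are set side by side, tau genotype, background, paralysis and age cannot be told apart.

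The anterior pituitary hangs below the hypothalamus and is not part of the forebrain. Its lactotrophs secrete prolactin (Prl) and its somatotrophs secrete growth hormone (Gh). Thyrotropin, luteinizing hormone and follicle-stimulating hormone each pair a common alpha subunit (Cga) with a beta subunit of their own (Tshb, Lhb and Fshb). The pituitary factor Pit-1, encoded by Pou1f1, switches on Prl, Gh and Tshb, and hypothalamic peptides and dopamine set how much hormone is released. Thyrotropin subunits are also made in the pars tuberalis, a thin sheet of pituitary tissue against the base of the hypothalamus.

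In GRCm38, Prl (ENSMUSG00000021342) lies on the plus strand of chr13:27057570-27065205, where GENCODE M21 also places the antisense gene Gm47888. Gh (ENSMUSG00000020713) lies on the minus strand of chr11:106300271-106301865 and overlaps no other gene. Cga (ENSMUSG00000028298) lies on the plus strand of chr4:34893779-34907370 and overlaps Platr9 on the other strand. Tshb (ENSMUSG00000027857) lies on the minus strand of chr3:102775465-102782718, opposite Tspan2. Lhb (ENSMUSG00000100916) lies on the plus strand of chr7:45420820-45421897, opposite Ruvbl2. Fshb (ENSMUSG00000027120) lies on the minus strand of chr2:107056140-107059656 and overlaps no other gene. None of the 50-base windows of the Prl, Gh, Tshb and Fshb transcripts occurs in a transcript of another gene (0%), against 25.8% of the Cga windows (in Platr9) and 14.1% of the Lhb windows (in Ruvbl2). Of the 25 other genes of the prolactin family, which lie beside Prl and arose from it by duplication, 2 had any count, with at most 12 in 1 mouse for Prl2c2 and 7 for Prl2c3.

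The promoters of Prl, Cga and Tshb are shown as examples of genes at 0 in most mice (Prl and Cga) or read in every mouse (Tshb). Each line holds the 250 bases before the RefSeq start of the gene (GRCm38.p6), read toward the gene, with capitals marking matches on either strand to TATNCAT (a core of Pit-1 sites), TATAAA (the TATA box), TGNCCTTG (a core of SF-1 sites) or TAATCC (a core of Pitx sites).
Prl: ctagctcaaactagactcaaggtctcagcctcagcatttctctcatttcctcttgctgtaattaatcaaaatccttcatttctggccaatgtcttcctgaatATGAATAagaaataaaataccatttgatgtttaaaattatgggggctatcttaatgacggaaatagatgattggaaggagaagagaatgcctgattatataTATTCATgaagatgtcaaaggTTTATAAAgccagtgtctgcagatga
Cga: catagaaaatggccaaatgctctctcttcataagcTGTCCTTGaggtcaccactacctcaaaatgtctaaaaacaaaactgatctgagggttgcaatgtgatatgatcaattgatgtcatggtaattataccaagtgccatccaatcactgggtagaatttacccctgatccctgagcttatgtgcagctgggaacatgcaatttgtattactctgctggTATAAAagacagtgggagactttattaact
Tshb: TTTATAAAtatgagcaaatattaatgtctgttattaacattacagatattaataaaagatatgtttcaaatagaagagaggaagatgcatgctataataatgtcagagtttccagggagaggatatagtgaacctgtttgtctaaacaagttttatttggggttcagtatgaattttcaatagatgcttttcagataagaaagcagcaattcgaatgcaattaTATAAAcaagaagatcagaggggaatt
The windows are chr13:27057320-27057569 (plus strand), chr4:34893529-34893778 (plus strand) and chr3:102782715-102782964 (minus strand). TATNCAT occurred at 2 places before Prl, 47 to 41 and 148 to 142 bases before the start, and nowhere in the Tshb and Cga windows. TATAAA, which overlaps its own reverse match in Prl and Tshb, occurred 24 to 19, 30 to 25 and 27 to 22 bases before the starts of Prl, Cga and Tshb, and again 248 to 243 bases before Tshb. TGNCCTTG occurred in Cga, 215 to 208 bases before the start. Of the genes not shown, Lhb held TGNCCTTG 129 to 122 and 59 to 52 bases before its start and TATAAA 31 to 26 bases before it. Fshb held TATAAA 30 to 25 bases before its start. Of 32851 promoters of the same length, 7.92% hold TATNCAT, 12.4% TATAAA, 5.53% TGNCCTTG and 6.25% TAATCC. These matches describe letters and not binding. Gh is named only.

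Libraries held 59265459 to 75932183 counts (median 63751715), so that 3 counts stood for 0.0395 to 0.0506 CPM, the count scaled to a fixed library size. Levels are given as counts, as CPM with TMM factors, or as FPKM, which also divides by length. A group listed at 0 is compared at 3 counts per library, an allowance for counting error only. Of the values above 0 in the whole table, 9.10% were 1, 2 or 3, and whether a listed 0 hides a few reads cannot be told from the tables. All 126 member values (6 genes in 21 mice) were above 0 in both the count and the FPKM table or in neither. The 8 forebrain marker genes summed to 2917 to 4272 CPM and the 6 hindbrain markers to 0.796 to 7.36 CPM. By sex-linked transcripts, 17 mice had 12188 to 36358 counts of Xist, the transcript of the inactive X chromosome, with at most 21 of the Y-linked Ddx3y. The other 4 mice, E4H replicate 3, PS/E2H replicate 2 and PS/E4H replicates 1 and 4, had 2517 to 4246 counts of Ddx3y with 164 to 189 of Xist. The study's methods describe all of these mice as male except a few females in the E4H, PS/E2H and PS/E4H groups. Those are the groups that hold the high-Ddx3y mice, in the same number in each, so that the transcripts give the reverse of the stated sexes. No label states the sex of a mouse. Results that these transcripts touch are given with them.

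Prl had the highest count of the hormone genes in any mouse (423), and was read mainly in parental mice. In E2H mice its counts were 10, 0 and 108. In E3H mice they were 334, 185 and 153, and in E4H mice 423, 78 and 0. All 4 PS/E2H mice and all 4 PS/E3H mice had 0, and in PS/E4H mice the counts were 0, 153, 0 and 0. Thus 7 of 9 parental mice and 1 of 12 PS19 mice had more than 3 counts, and E3H was the only line in which every mouse did. By mean level the order was E3H (3.16 ± 1.28 CPM, SD, n = 3), E4H (2.44 ± 3.37, n = 3), PS/E4H (0.63 ± 1.26, n = 4), E2H (0.54 ± 0.822, n = 3) and then PS/E2H and PS/E3H at 0. The ranges of each of the neighbouring groups among E3H, E4H, PS/E4H and E2H overlapped. Single mice set several of these means. Without E2H replicate 3 the E2H mean was 0.0663 CPM, without E4H replicate 1 the E4H mean was 0.517 CPM, and without PS/E4H replicate 2 the PS/E4H mean was 0. The E3H mean lay between 2.47 and 3.74 CPM when single mice were left out. With all E3H mice, the mean of 3.16 CPM was 70 times the level of 3 counts in PS/E3H (0.0451 CPM). That level is an allowance and not a measured value. No mouse with high Ddx3y had Prl. Among the mice with high Xist, Prl passed 3 counts in 7 of 8 parental and 1 of 9 PS19 mice. Prl was therefore also split between parental and PS19 mice within the high-Xist class.

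**Figure D1:**
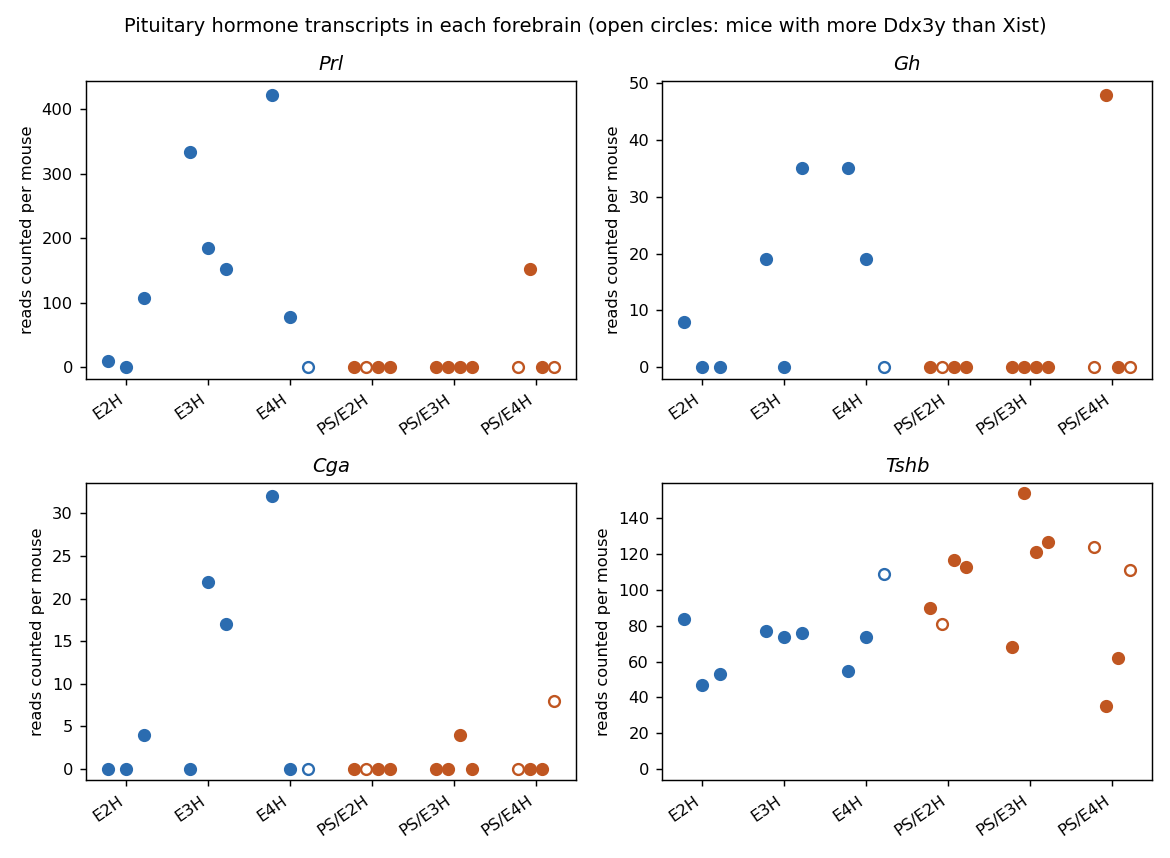
Counts of Prl, Gh, Cga and Tshb (y axis, reads counted) in each of the 21 mice, by group (x axis), with parental mice in blue, PS19 mice in orange and the 4 mice with more Ddx3y than Xist as open circles. Prl, Gh and Cga are at 0 in most PS19 mice, whereas Tshb is above 0 in every mouse, from 35 to 154 counts.

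Gh was read at a lower level and in fewer mice. Its counts were 8, 0 and 0 in E2H mice, 19, 0 and 35 in E3H mice, 35, 19 and 0 in E4H mice, and 0, 48, 0 and 0 in PS/E4H mice. All PS/E2H and PS/E3H mice were at 0. Every one of the 6 mice with Gh also had Prl, and the mouse with the highest Gh, PS/E4H replicate 2, was the only PS19 mouse with Prl. The remaining 2 mice with Prl, E2H replicate 3 (108 counts) and E3H replicate 2 (185 counts), had 0 Gh. Per length, the ratio of Prl to Gh FPKM in the 6 mice was 0.789 in E2H replicate 1, 11.1 in E3H replicate 1, 2.71 in E3H replicate 3, 7.51 in E4H replicate 1, 2.54 in E4H replicate 2 and 1.95 in PS/E4H replicate 2. The mice with Gh were thus all among those with Prl, but the genes kept no fixed proportion.

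Of the glycoprotein hormone genes, Cga was sparse, Lhb was at 0 in all 21 mice and Fshb was near 0. Cga had 0, 0 and 4 counts in E2H mice, 0, 22 and 17 in E3H mice, 32, 0 and 0 in E4H mice, 0, 0, 4 and 0 in PS/E3H mice and 0, 0, 0 and 8 in PS/E4H mice, with 0 in the 4 PS/E2H mice. The 3 highest Cga values came from mice with Prl, and of the 6 mice with Cga, 4 had Prl and 2 had Gh. Fshb had 8 counts in E3H replicate 3, 4 in PS/E3H replicate 4 and 4 in PS/E4H replicate 4. No gonadotropin beta subunit thus passed 8 counts in any forebrain, a level at which no comparison of groups can be drawn.

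Tshb was the only hormone gene read in every mouse. Its counts were 84, 47 and 53 in E2H mice, 77, 74 and 76 in E3H mice and 55, 74 and 109 in E4H mice. They were 90, 81, 117 and 113 in PS/E2H mice, 68, 154, 121 and 127 in PS/E3H mice and 124, 35, 62 and 111 in PS/E4H mice. The lowest value, 35, belonged to PS/E4H replicate 2, the PS19 mouse with Prl and Gh. The group means were 0.891 ± 0.199, 1.07 ± 0.102 and 1.09 ± 0.337 CPM in E2H, E3H and E4H (SD, n = 3 each). In PS19 mice they were 1.62 ± 0.327 CPM with APOE2, 1.79 ± 0.621 with APOE3 and 1.33 ± 0.654 with APOE4 (SD, n = 4 each). PS/E2H mice (1.3 to 1.9 CPM) did not overlap E2H mice (0.729 to 1.11 CPM). Tshb was not called in that comparison, where 0.485% of tested genes were. The share of all genes whose ranges part in this way was not counted, and groups of 3 and 4 mice can part by chance. The other PS19 groups overlapped their parental lines. Tshb counts should be read against its gene model, since 1 annotated transcript, a retained intron of a single exon, covers 4396 bases and the 5 coding transcripts 476 to 605 bases. The length implied by count over FPKM was 4560 to 4682 bases, close to the 4555 bases of all Tshb exons joined, and the gene-level tables do not say which exons the reads came from. No exon of Tspan2, on the other strand, overlaps the long Tshb exon (0). Per length Tshb reached 0.111 to 0.507 FPKM, below Prl at its highest (4.13 FPKM in E4H replicate 1).

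The other pituitary genes were read at low counts or in mice with and without Prl. Pou1f1, which encodes Pit-1, had at most 3 counts, in E4H replicate 2 (3), PS/E2H replicate 3 (2) and PS/E4H replicate 4 (3), so that it was at 0 in 7 of the 8 mice with Prl. The receptor genes Ghrhr and Gnrhr, by which somatotrophs and gonadotrophs sense the hypothalamus, had at most 4 and 10 counts. Pitx1, a pituitary homeobox gene, had 8, 0 and 0 counts in E2H mice, 12, 4 and 7 in E3H mice and 8, 0 and 0 in E4H mice, and passed 3 counts in 5 PS19 mice with at most 8. Pomc, which corticotrophs and also neurons of the arcuate nucleus express, was read in every mouse (43 to 291 counts). Summed over the 14 other pituitary genes, the level was 7.8 to 14.6 CPM (median 13.2) in the 8 mice with Prl and 7.89 to 14.4 CPM (median 10.8) in the 13 without. The sum includes Pomc and the receptor gene Trhr (220 to 616 counts), which neurons also express, so it does not measure pituitary tissue alone. Of the 8 mice with Prl, 7 were parental. Among the 14 genes Trhr varied with Prl over the 21 mice (Pearson's r = 0.54 of log2 CPM, a description), as did Pitx1 (r = 0.45). Pax7 varied against Prl (r = -0.59).

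Markers of the hypothalamus, the brain region the pituitary hangs from, were read in mice with and without Prl. The 11 hypothalamic markers summed to 4.43 to 62 CPM (median 42.6) in mice with Prl and to 27 to 98.3 CPM (median 44.8) in mice without, and each of the 11 passed 3 counts in some mouse of either class. Pmch, the gene for melanin-concentrating hormone of the lateral hypothalamus, had 24 counts in E4H replicate 2 and 943 to 4396 in all others. Hcrt, which encodes the orexins, had 0 counts in the same mouse. E4H replicate 2 had 78 Prl and 19 Gh counts. PS/E3H replicate 2, with the highest Pmch (4396) and Hcrt (730), had 0 of both. These single mice were picked for their extreme Pmch and Hcrt values and are a description only. The 8 choroid plexus markers ranged over 451 to 1244 CPM in mice with Prl and 429 to 899 CPM in mice without. The part of differences in dissection in the Prl, Gh and Cga counts was not tested. In bulk tissue, fewer hormone cells and less RNA per cell cannot be told apart.

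Over the 21 mice, by Pearson's r of log2(CPM + 0.1) among 26350 genes with at least 10 counts in some mouse, Prl varied with Gh (r = 0.78) and Cga (r = 0.59) and against Tshb (r = -0.64). Gh and Tshb likewise had r = -0.60. These are descriptions over libraries that share groups and many zeros. The 10 other genes most like Prl were Alox12e (0.81), Alb (0.80), Gm47015, Gm14424, Gm26930, Gm10723, Fam184b, Nr3c2, Acvr2a and Dubr. Alb encodes serum albumin, a plasma protein of liver. Its counts were 0, 0 and 29 in E2H mice, 542, 280 and 24 in E3H mice and 264, 15 and 143 in E4H mice. In PS19 mice it was 15 in PS/E4H replicate 2 and 0 in the other 11. Of the 8 mice with Alb, 7 had Prl, with E4H replicate 3 (143 Alb, 0 Prl) and E2H replicate 1 (0 Alb, 10 Prl) the mice in which the genes parted. Alb was singled out here by its likeness to Prl, so its calls are a description and add no support. It was called lower in PS/E3H than in E3H mice (edgeR, adjusted p = 0.0149), where 1.32% of tested genes were called. It passed the count filter there through the E3H mice alone. In PS/E4H it was called lower than in E4H mice (edgeR, log2 fold change -5.01 ± 1.23, SE, adjusted p = 0.0225), where 2.98% were called. There too the E4H mice carried Alb past the count filter, since PS/E4H replicate 2 was the only PS/E4H mouse above 0. Fam184b (425 to 854 counts with Prl, 343 to 600 without) and the mineralocorticoid receptor gene Nr3c2 (2672 to 5095 with Prl, 2185 to 3969 without) were read in all 21 mice. For Gh the 10 most like were Rp1l1 (0.89), Gm44723, 5430403N17Rik, Gm853, Sh3rf2, Gm49524, Gm43273, Gm18622, Gm44084 and Gm47015. All of these but Sh3rf2 had at most 17 counts in any mouse.

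Because a liver transcript moved with Prl, 12 hepatocyte genes were listed after the values of most had been seen (Alb, Apoa1, Apoa2, Apoh, Fga, Fgb, Fgg, Serpina1a, Serpina1c, Serpina3k, Ahsg and Cyp2e1). Their sum was 1.3 to 15.3 CPM (median 2.45) in mice with Prl and 1.01 to 5.57 CPM (median 1.71) in mice without. By group it was 1.59 to 2.52 CPM in E2H, 2.39 to 15.3 in E3H, 1.3 to 9.19 in E4H and 1.01 to 2.45 over all PS19 mice. None of the 12 was at 0 in all mice with Prl or in all mice without. The part of RNA from outside the brain in the Prl counts was not tested.

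**Figure D2:**
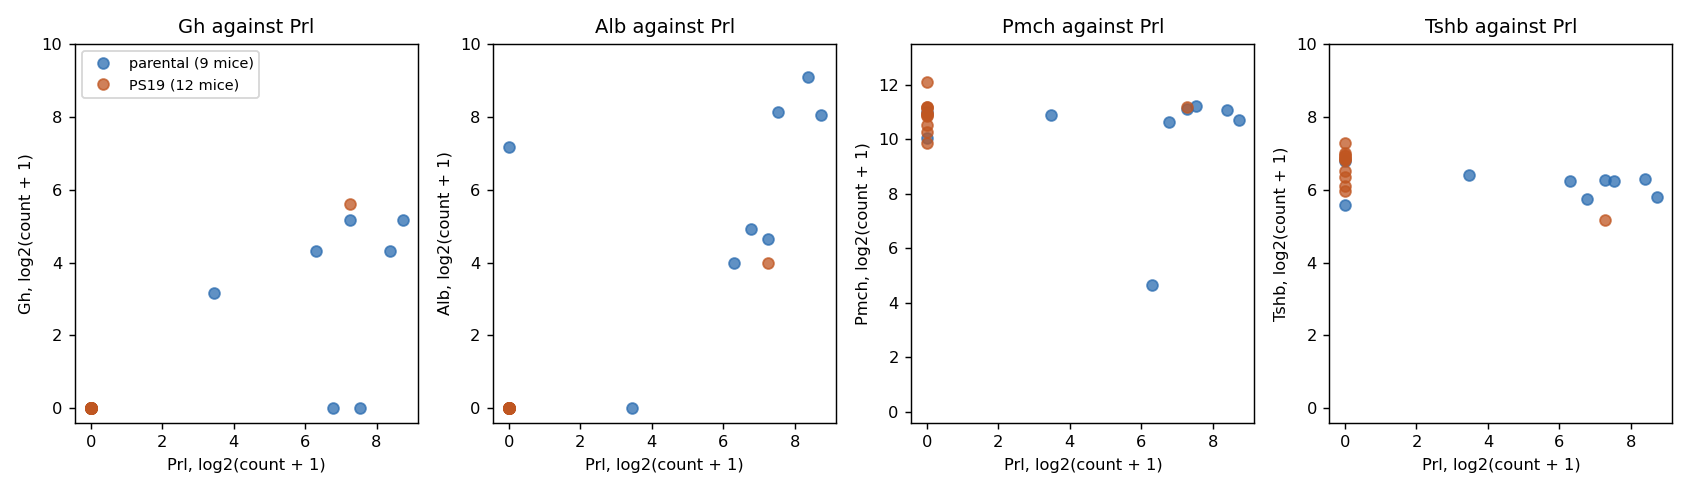
Counts of Gh, Alb, Pmch and Tshb (y axes, log2 of count + 1) against Prl (x axis, log2 of count + 1), 1 point per mouse, with 9 parental mice in blue and 12 PS19 mice in orange. Gh is above 0 in 6 of the 8 mice with Prl and in none of the 13 without, Alb in 7 of the 8 and in 1 of the 13, and Pmch stays between 943 and 4396 counts except for 24 in 1 mouse with Prl.

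Across the 9 comparisons of groups, fitted over all genes with edgeR (quasi-likelihood test), calls needed a change of at least 2-fold with an adjusted p (Benjamini-Hochberg) under 0.05. The calls on the hormone genes are a description, since their values were known when they were picked. Prl was called lower in PS/E3H than in E3H mice, where 1.32% of 21251 tested genes were called and 0.127% were called lower. It passed the count filter there through the E3H mice alone, as the PS/E3H mice were at 0, and Tshb, the other hormone gene that passed, was not called. Prl was called in each of 7 fits that left out 1 mouse, and not in a single fit over all 6 groups. With every PS/E3H mouse at 0, leaving out 1 mouse could hardly change the call, so these fits add no support. In PS/E4H against E4H, 3 hormone genes passed the filter and 0 were called (background 2.98%), and in PS/E2H against E2H only Tshb passed and was not called (0.485%). In the APOE comparisons of parental mice, 0 of 2 were called in E2H vs E3H (0.144%), 0 of 4 in E4H vs E3H (0.10%) and 0 of 2 in E4H vs E2H (0.187%). Among PS19 mice Tshb alone passed the filter and was not called in PS/E2H vs PS/E3H (0.108%), PS/E4H vs PS/E3H (0.0197%) or PS/E4H vs PS/E2H (0.109%). DESeq2 called 0 hormone genes in all of these but PS/E3H vs E3H, where it called Prl.

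The genes around the hormones, namely 14 other pituitary genes, 9 hypothalamic regulators, 11 hypothalamic markers, 5 hormone receptors and 8 hormone-responsive genes, were tested in the same fits. In the APOE comparisons 0 of the 36 to 38 of these 47 that passed the filter were called by edgeR, and DESeq2 called 0 of 44 to 46. At an unadjusted p under 0.05 there were 6 in E2H vs E3H, 1 in E4H vs E3H, 3 in E4H vs E2H, 3 in PS/E2H vs PS/E3H, 0 in PS/E4H vs PS/E3H and 1 in PS/E4H vs PS/E2H. The share of all tested genes at that limit is not given, so these counts are a description of the surrounding genes. The median log2 difference of the surrounding genes lay between -0.16 and 0.18, against -0.01 to 0.00 over all tested genes.

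Between PS19 mice and their parental lines, 1 of 36 was called in PS/E4H vs E4H (Igf1), 0 of 36 in PS/E3H vs E3H and 0 of 38 in PS/E2H vs E2H. Of all tested genes 2.98%, 1.32% and 0.485% were called in the same order, so 1 of 36 lies near the background. DESeq2 called 1, 1 (Dio3) and 0. At an unadjusted p under 0.05 by edgeR there were 8, 5 and 7 in that order. The share of all tested genes at this unadjusted limit is not given. At an adjusted p under 0.05 with any change in size, the counts were 3 of 36 in PS/E4H vs E4H, 1 of 36 in PS/E3H vs E3H and 0 of 38 in PS/E2H vs E2H, where 15.6%, 5.37% and 0.752% of all tested genes passed. The median log2 fold change of the 36 to 38 genes was 0.24, 0.06 and 0.17 in the same order. Over all tested genes it was -0.00, -0.00 and -0.02.

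Igf1, the growth factor that growth hormone induces in liver and that microglia and neurons also make, was higher in PS/E4H than in E4H mice. Its counts were 424, 384 and 499 in E4H mice and 936, 950, 632 and 693 in PS/E4H mice, with no overlap. The share of all genes whose ranges part in this way was not counted. The log2 fold change of Igf1 was 1.10 ± 0.183 (SE, adjusted p = 0.00423). It was the 1 call among 36 tested surrounding genes, in a comparison where 2.98% of all tested genes were called. On the other backgrounds the Igf1 differences were 0.72 ± 0.237 (SE, adjusted p = 0.108) for PS/E3H and 0.48 ± 0.177 (SE, adjusted p = 0.336) for PS/E2H. Without E4H replicate 2 or PS/E4H replicate 2 the log2 fold change fell to the edge of the 2-fold limit (0.99 without the former), and the call was lost.

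Trhr, the receptor for thyrotropin-releasing hormone, which thyrotrophs and many forebrain neurons carry, was lower in PS/E3H and PS/E4H mice than in their parental lines. Its counts were 447, 572 and 570 in E2H mice, 498, 412 and 616 in E3H mice and 513, 514 and 601 in E4H mice. They were 300, 314, 327 and 278 in PS/E2H mice, 343, 220, 254 and 317 in PS/E3H mice and 268, 367, 359 and 313 in PS/E4H mice. These Trhr counts are not scaled for library size. Its log2 fold change was -0.76 ± 0.156 (SE, adjusted p = 0.0238) in PS/E3H and -0.52 ± 0.152 (SE, adjusted p = 0.0454) in PS/E4H. In PS/E2H it was -0.70 ± 0.192 (SE, adjusted p = 0.177). All 3 were smaller than 2-fold. When single mice were left out, the adjusted p stayed under 0.05 in 2 of 7 fits for PS/E3H (-0.83 to -0.67) and 2 of 7 for PS/E4H (-0.58 to -0.43). Without the high-Ddx3y mice (1 of E4H and 2 of PS/E4H), which left 2 mice in each group, the PS/E4H value was -0.29 (adjusted p = 0.308). Its ligand gene Trh differed by 0.04 to 0.28 on the log2 scale, with adjusted p of at least 0.67.

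The receptors for the hormones themselves were read in every mouse, apart from that for follicle-stimulating hormone (Fshr, at most 8 counts). Prlr, the prolactin receptor, ranged over 32 to 942 counts, Ghr over 514 to 878, the thyrotropin receptor gene Tshr over 19 to 102 and the luteinizing hormone receptor gene Lhcgr over 13 to 86. Prlr, which the choroid plexus carries at a high level, was lowest in E3H replicate 2 (32) and PS/E3H replicate 2 (100). Its log2 differences between PS19 and parental mice were 0.04 ± 0.269, 0.03 ± 0.788 and 0.13 ± 0.227 (SE) on the APOE2, APOE3 and APOE4 backgrounds. Those of Ghr were -0.20 ± 0.146, 0.12 ± 0.156 and 0.06 ± 0.105 (SE). None of the 4 receptors that were tested reached an adjusted p under 0.05 in any of these comparisons by edgeR (1 at an unadjusted p under 0.05, Lhcgr in PS/E2H), and DESeq2 called 0 of them.

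**Figure D3:**
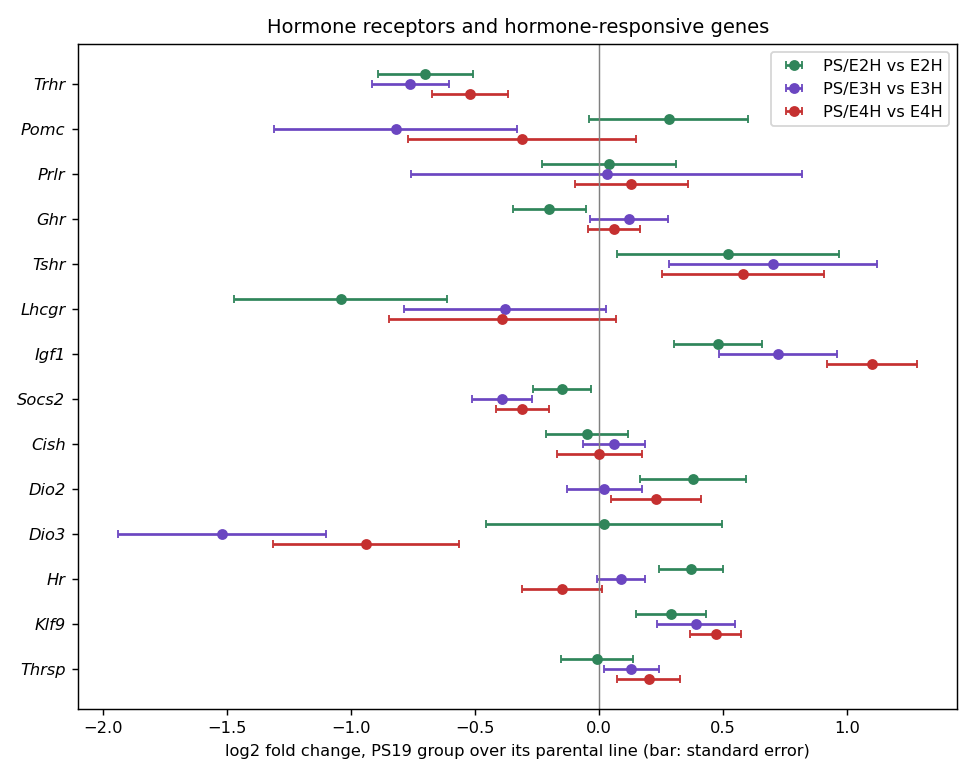
The log2 fold change of each PS19 group over its parental line (x axis, bars are standard errors) for the receptor genes, Pomc and the hormone-responsive genes that were tested (y axis). Trhr lies between -0.76 and -0.52 and Igf1 between 0.48 and 1.10 in the 3 comparisons, while Prlr and Ghr lie between -0.20 and 0.13.

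Among the genes that thyroid hormone or growth hormone is known to control, Klf9, a thyroid and glucocorticoid hormone target, was higher in PS/E4H than in E4H mice by 0.47 ± 0.102 on the log2 scale (SE, adjusted p = 0.0134), and by 0.35 (adjusted p = 0.0548) without the high-Ddx3y mice. It differed by 0.39 ± 0.158 (SE, adjusted p = 0.179) in PS/E3H and by 0.29 ± 0.14 (SE, adjusted p = 0.515) in PS/E2H. Dio3, the deiodinase that inactivates thyroid hormone, had 213, 118 and 187 counts in E3H mice and 112, 56, 28 and 32 in PS/E3H mice. Its log2 difference of -1.52 ± 0.418 (SE) missed the threshold with edgeR (adjusted p = 0.0632) and passed it with DESeq2 (adjusted p = 0.00692). In PS/E4H the value was -0.94 ± 0.374 (SE, adjusted p = 0.12) and in PS/E2H 0.02 ± 0.476 (SE, adjusted p = 0.994). Dio2, which activates the hormone, differed by 0.38, 0.02 and 0.23, and Hr by 0.37, 0.09 and -0.15, on the log2 scale with APOE2, APOE3 and APOE4, with adjusted p of at least 0.306. Socs2, a growth hormone target, differed by -0.15, -0.39 and -0.31 with adjusted p of at least 0.0749. The other listed hormone-responsive genes were Cish and Thrsp. Cish differed by -0.05, 0.06 and -0.00 and Thrsp by -0.01, 0.13 and 0.20, with adjusted p of at least 0.333. None of 117 tests of whether such a difference varied between APOE backgrounds passed, with a lowest adjusted p of 0.436. In the same fits 0 of all 22133, 22031 and 22212 tested genes passed, so this outcome is not particular to the surrounding genes. It does not show that their differences were alike across backgrounds.

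**Figure D4:**
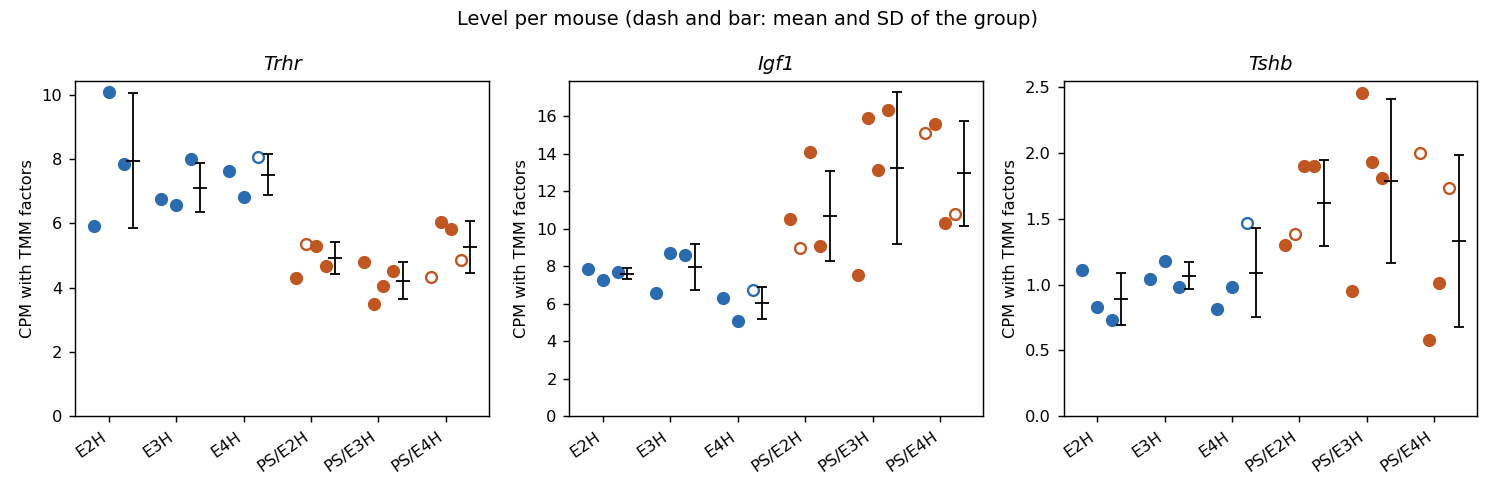
CPM with TMM factors (y axis) of Trhr, Igf1 and Tshb in each mouse by group (x axis), with the mean and SD of the group beside the points and the 4 mice with more Ddx3y than Xist as open circles. Trhr is lower in each PS19 group than in its parental line (4.22 to 5.27 against 7.11 to 7.96 CPM in the group means), and Igf1 is higher (10.7 to 13.2 against 6.04 to 7.96).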

How the data were processed

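Poly(A) RNA of frozen, pulverized forebrains from 21 perfused mice was sequenced from stranded libraries. Per the labels and the study's methods, the authors trimmed reads with Cutadapt, aligned them with HISAT2 (GRCm38.p5, Ensembl) and quantified genes with StringTie and ballgown. Tool versions and how counts were derived are not given in the sources used here. The authors deposited raw counts (whole numbers per gene) and FPKM values scaled for length and depth. Labels name the group and replicate number of each mouse, and 0 columns were left unmapped. The hormone genes and the gene lists were chosen with earlier results of these data known.

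Counts were fitted with edgeR 4.0.16 in R 4.3.3 (TMM, filterByExpr with a minimum count of 10 and total of 15, quasi-likelihood F test), on the mice of each comparison, with no covariate. Standard errors are the log2 fold change over the square root of F. Alternatives were DESeq2 1.42.0, RLE factors, no filter, limma 3.58.1 on log2(FPKM + 1) for genes with an FPKM of at least 0.1 in 3 mice, 1 fit over 6 groups, a replicate block and leaving out each mouse. The text names the 6 hormone genes, listed genes with every called one, and the 10 genes most like Prl and Gh. Gene positions are from GENCODE M21, which names 55141 of the 55401 genes, and promoters from RefSeq, which matched 5 of the 6 hormone genes. Python 3.11.15, pandas 2.3.3, NumPy 2.4.6 and matplotlib 3.10.9 were used.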

Additional observations from a re-analysis of the deposited data

Results flagged for a closer look

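Dixon's limit was applied to 114 sets of 4 PS19 mice (hormone genes and the surrounding genes with a mean of at least 10 counts). In 12 sets 1 mouse lay far from the other 3. Chance passes the limit in about 1 of 20 sets of continuous values. A set with 0 in 3 mice passes whatever the count in the other, so the 12 flags cannot be set against that rate. PS/E4H replicate 2 stood apart for Prl (2.52 CPM) and Gh (0.791 CPM), each with 0 in the other 3 mice. The flags on Cga in PS/E3H replicate 3 (0.0637 CPM) and PS/E4H replicate 4 (0.124 CPM), and on Fshb in PS/E3H replicate 4 (0.057 CPM) and PS/E4H replicate 4 (0.0622 CPM), rest on 4 to 8 counts against 0.

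PS/E3H replicate 2, the mouse with the highest Pmch and 0 Prl, was highest for the hypothalamic genes Hdc (5.29 against 3.61 to 3.79 CPM) and Nkx2-1 (2.5 against 1.54 to 1.64 CPM) and for Thrsp (17.5 against 13.7 to 14.1 CPM). PS/E2H replicate 4 was highest for Sim1 (1.5 against 0.598 to 0.734 CPM) and Dio2 (92.4 against 50.2 to 55.2 CPM). PS/E4H replicate 1 was highest for Tshr (1.65 against 0.886 to 1 CPM).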

How the results depend on the processing

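With single mice left out, mean Prl ran from 0.0663 to 0.809 CPM in E2H, 2.47 to 3.74 in E3H, 0.517 to 3.66 in E4H and 0 to 0.84 in PS/E4H. Prl in PS/E3H vs E3H was called in 12 of 13 alternatives (log2 -10.98 to -10.39 with mice left out, a fitted value that depends on the prior count), and in the fit over 6 groups it was -10.72, not called. Every PS/E3H mouse was at 0 and the Prl values were known beforehand, so these repeated calls add no support. The counts of genes called, over all genes, moved with the settings given next. The cause was not tested, and DESeq2 and limma also differed from edgeR in the genes tested or the unit.

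DESeq2 called 76, 32, 86, 67, 22, 85 and 270 genes in E2H vs E3H, E4H vs E3H, E4H vs E2H, PS/E2H vs PS/E3H, PS/E4H vs PS/E3H, PS/E4H vs PS/E2H and PS/E2H vs E2H, against 30, 21, 39, 22, 4, 22 and 100 with edgeR. limma on log2(FPKM + 1) called 16, 12, 23, 12, 1, 9 and 34 in the same order, 60 in PS/E3H vs E3H (edgeR 281) and 133 in PS/E4H vs E4H (edgeR 621). Without the count filter, E4H vs E3H gave 13, PS/E4H vs PS/E3H 2, PS/E2H vs E2H 55 and PS/E3H vs E3H 173. The fit over 6 groups gave 38 in PS/E2H vs PS/E3H, 10 in PS/E4H vs PS/E3H, 48 in PS/E4H vs PS/E2H and 208 in PS/E2H vs E2H. Leaving out each mouse gave 21 to 36, 13 to 17, 26 to 40, 14 to 20, 0 to 6, 14 to 23, 30 to 99, 77 to 494 and 384 to 702 genes in these 7 comparisons, PS/E3H vs E3H and PS/E4H vs E4H.

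Of the surrounding genes, DESeq2 called 1 (Dio3) in PS/E3H vs E3H, and leaving out each mouse gave 0 to 2 (Pax7 and Th without E3H replicate 2, Dio3 without PS/E3H replicate 1). In PS/E4H vs E4H limma called 0, an alternative chosen after seeing the data (leaving out the high-Ddx3y mice) called 2 (Igf1 and Th), and leaving out each mouse gave 0 to 3. In PS/E2H vs E2H, the Dio3 difference of 0.02 turned to -0.01 with the replicate block and ran from -0.39 to 0.50 with mice left out, being -0.39 without E2H replicate 1, -0.12 without PS/E2H replicate 1 and -0.13 without PS/E2H replicate 4, all far from the threshold.

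Replicate numbers did not pair the mice: the correlations of deviations from the group means between same-numbered mice were -0.17 to 0.19, no comparison had every pair over 0.1, and 14 of 60 mice by comparison correlated best with their own number. With the replicate block 12 genes were called in E4H vs E3H, 25 in E4H vs E2H, 0 in PS/E4H vs PS/E3H, 150 in PS/E2H vs E2H and 157 in PS/E3H vs E3H. Trhr had an adjusted p of 0.0617 in PS/E3H and 0.158 in PS/E4H, and Klf9 0.0582 in PS/E4H. The alternative without the high-Xist mice was not run, since it would leave 4 of the 21. Depth limits statements on Lhb (0 in every mouse) and Fshb (at most 8 counts), against the allowance of 3 counts.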
